A study of Mus musculus with 12 samples.

Results

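The genes described here are 35 interferon-induced and antigen-processing genes, followed across 4 groups of cultured primary mouse keratinocytes. They were chosen by name, and a gene was measured where a transcript cluster of the array (the set of probes that reports 1 gene or a piece of it) carried that gene's symbol alone. A cluster of this kind was present for 34 of the 35 genes, and 32 of them passed a filter on low values and were tested among 15868 genes in all. Gbp2 was not analysed here. Mx1, at log2 values of 5.45 to 5.73, and Mx2, at 5.22 to 5.54, did not pass the filter.

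RNA was measured on 12 Affymetrix Mouse Gene 1.0 ST arrays, 3 in each group, from keratinocytes of FVB/N mice. The first group was MT-HGF transgenic cells that had been mock transduced, grown in 8% serum and exposed for 24 hours to AG1478, an inhibitor of the EGF receptor kinase. The second was MT-HGF cells described as controls, and the third, called RAS cells here, was wild-type cells transduced with the v-rasHa oncogene. The fourth was wild-type control cells. In MT-HGF mice a metallothionein promoter drives hepatocyte growth factor, the ligand of the MET receptor, in many tissues. For the last 3 of these groups the labels share a note on a 3-day RAS transduction, and they do not say how either control was handled in that step. The AG1478-treated arrays carry differently worded culture and extraction notes from the other 9, and no vehicle-treated array was analysed here, so drug and submission cannot be told apart. Titles call the first 9 arrays biological replicates, but no label ties an array to an animal or a culture, so part of the spread behind the p-values may be technical.

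Type I interferons bind the IFNAR receptor, and the kinases JAK1 and TYK2 then phosphorylate STAT2. STAT2 and IRF9 are parts of a complex that binds the interferon-stimulated response element (ISRE) upstream of antiviral genes, while interferon gamma acts mainly through gamma-activated sites (GAS). The same signals raise the machinery that cuts proteins into peptides and loads them on MHC class I for display to T cells. Keratinocytes respond to both kinds of interferon and are themselves infected by skin viruses.

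Sequences upstream of the gene starts are shown for 3 cases that the results below return to. RefSeq windows on build GRCm38.p6, 250 bases before to 50 after each start, matched 26 of the 35 genes. The ISRE core was searched as GAAANNGAAA, or TTTCNNTTTC on the other strand, and the GAS as TTCNNNGAA, which reads the same on both strands, with overlapping matches counted. At least 1 ISRE core was found for 12 of the 26 genes (46.2%), against 3.99% of the 27025 genes with a window. A GAS was found for 7 of the 26 (26.9%), against 9.55% of all genes. A match describes letters only and is not a measured binding site. Ifit1 is shown because its window held 2 ISRE cores, 104 and 85 bases before the start, at chr19:34640639-34640888 on the plus strand. Irf1 is shown because its window held a GAS 90 bases before the start, at chr11:53769764-53770013 on the plus strand. Tap1 and Psmb9 are shown together because they start 226 bases apart on opposite strands of chromosome 17, with Tap1 on the plus strand, at chr17:34187331-34187555. Capitals mark the ISRE core or the GAS, and the Tap1 and Psmb9 windows held neither. Of the 14 genes called lower in RAS cells that had a window, 3 held an ISRE core, as did 2 of the 2 called higher and 6 of the 9 not called. In MT-HGF cells an ISRE core was held by 3 of the 11 called lower, 0 of the 1 called higher and 8 of the 13 not called. Whether these shares differ was not tested.
Ifit1 upstream: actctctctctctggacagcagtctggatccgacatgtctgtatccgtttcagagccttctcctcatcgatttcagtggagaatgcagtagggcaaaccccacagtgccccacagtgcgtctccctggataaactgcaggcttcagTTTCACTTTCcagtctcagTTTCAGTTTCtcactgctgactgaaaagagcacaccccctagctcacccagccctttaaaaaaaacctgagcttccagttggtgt
Irf1 upstream: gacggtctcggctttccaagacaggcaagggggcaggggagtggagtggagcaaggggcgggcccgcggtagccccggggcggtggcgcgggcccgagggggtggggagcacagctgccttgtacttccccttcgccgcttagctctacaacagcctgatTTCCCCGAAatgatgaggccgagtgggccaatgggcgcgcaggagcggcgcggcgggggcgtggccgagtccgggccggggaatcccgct
Between Psmb9 and Tap1: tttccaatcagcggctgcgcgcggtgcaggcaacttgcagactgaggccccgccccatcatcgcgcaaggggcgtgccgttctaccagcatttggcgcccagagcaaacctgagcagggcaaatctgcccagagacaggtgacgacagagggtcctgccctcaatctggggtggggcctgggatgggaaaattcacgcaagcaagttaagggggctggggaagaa

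Many of the 32 tested genes were lower in RAS cells and in MT-HGF cells than in wild type, most by less than 1.5-fold. In RAS cells 17 were called lower and 2 higher by limma at a Benjamini-Hochberg adjusted p under 0.05, with the p adjusted over all genes. That compares with 19.9% of all genes called lower and 12.6% called higher in the same comparison, while 53.1% of the 32 were called lower. The median log2 difference of the 32 was -0.25, against -0.02 for all genes. In MT-HGF cells 15 were lower and 2 higher, which is 46.9% called lower against a background of 23.9% lower and 17.1% higher, and the median was -0.16, against -0.03. Fitted differences of at least 1.5-fold were called for 2 genes lower in RAS cells, Tap1 and Xaf1 (background 2.62%), and 4 lower in MT-HGF cells, Tap1, Xaf1, Dtx3l and Ifit2 (background 4.47%). Of these 4, the MT-HGF arrays were above the array's background signal for Tap1 and Dtx3l only, so the fitted sizes for Xaf1 and Ifit2 are not measured ratios. Both comparisons use the same wild-type arrays, so they are not independent of each other.

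**Figure D1:**
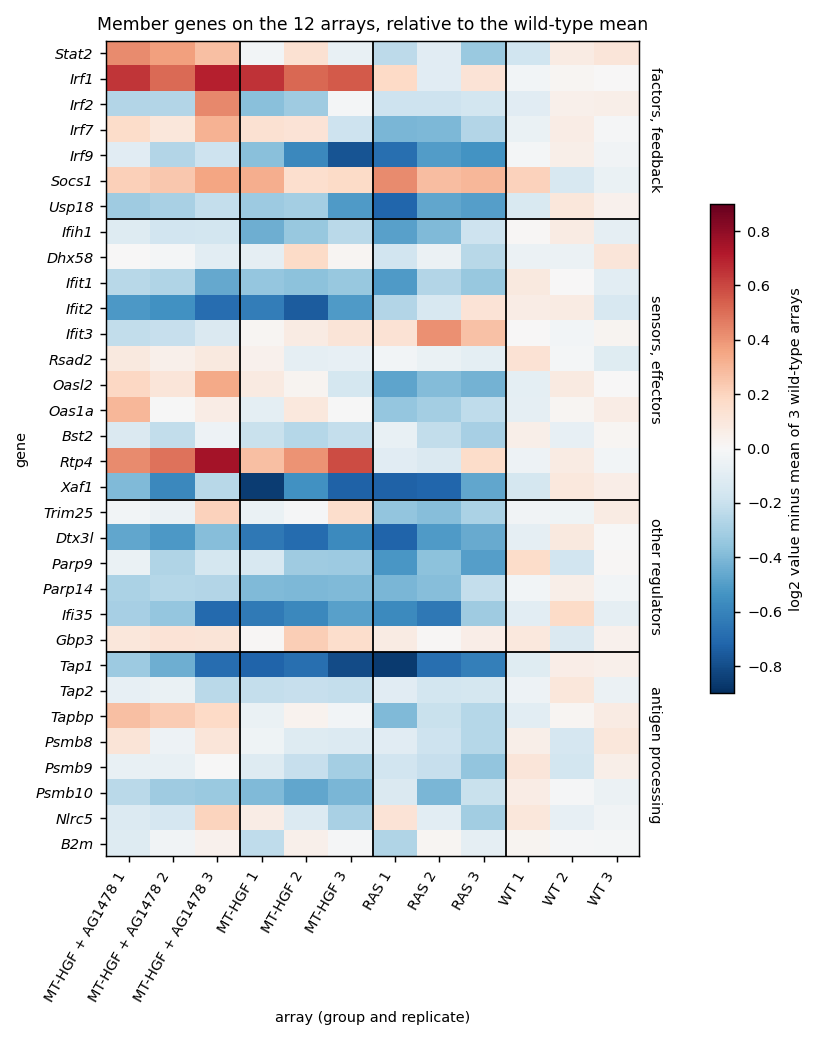
Log2 value of each tested gene minus its wild-type mean, in every array, with groups from left to right as AG1478-treated MT-HGF, MT-HGF, RAS and wild type and genes ordered by role. Tap1, Dtx3l and Irf9 are below their wild-type mean on all RAS and MT-HGF arrays, and Irf1 is above it on all MT-HGF arrays.

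The depth of an array reading is its signal over background, which was taken on each array as the 95th percentile of 161 chemosensory receptor genes. That line lay at log2 6.82 to 7.22, and array medians were 6.77 to 6.84. Of the 32 genes, 17 were above it on all 12 arrays, 10 on some, and Dhx58, Ifit2, Rsad2, Gbp3 and Psmb8 on none. Of the 17 genes called lower in RAS cells, 10 were above background on all arrays of both groups, as were 10 of the 15 called lower in MT-HGF cells. Where a group had no array above background, the ratio is given only as a bound against the background, or not at all.

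Other cell types in the cultures were read from marker genes, since in bulk RNA fewer cells of a type and less RNA per cell cannot be told apart. Most keratinocyte markers, Krt5 and Krt14 among them, were high in all groups. Mean log2 levels over 12 genes were 11.85 to 11.91 in AG1478-treated MT-HGF cells, 11.79 to 11.82 in MT-HGF cells and 11.79 to 11.83 in RAS cells, against 11.81 to 11.83 in wild type. Krt15 was near background, averaging 7.03 in MT-HGF cells, 7.09 in RAS cells and 7.12 in wild type, and 7.83 with AG1478. Itga6 averaged 10.82 with AG1478, 11.37 in MT-HGF cells and 11.50 in RAS cells, against 10.67 in wild type. With AG1478, 3 of the 12 were called higher and 2 lower than in untreated MT-HGF cells, against 6.57% and 9.91% of all genes. Most fibroblast markers were lower than in wild type. Their mean log2 level over 15 genes was 8.64 to 8.69 in AG1478-treated MT-HGF cells, 8.59 to 8.68 in MT-HGF cells and 8.32 to 8.35 in RAS cells, against 8.90 to 8.94 in wild type, and 10 of the 15 were called lower in each of the 3 groups. None was called higher in RAS cells, while 4 were in MT-HGF cells and 4 with AG1478, against 12.6%, 17.1% and 16.8% of all genes. The 4 were Dcn, Fbln1, Col3a1 and Lum in both, of which Dcn was higher by 1.77 in MT-HGF cells. Between MT-HGF and RAS cells 9 of the 15 were higher and 3 lower, against 13.4% and 12.6% of all genes. The median difference of the 15 was 0.44, against -0.02 for all genes. The summed level of the fibroblast markers, on the log2 scale, was 13.21 to 13.28 in AG1478-treated MT-HGF cells, 13.17 to 13.22 in MT-HGF cells and 13.09 to 13.11 in RAS cells, against 13.76 to 13.79 in wild type. In each group 13 of the 15 were above background on all arrays and 2, Lum and Dpt, on none, so the size of the Lum rise is not a measured ratio. Of the leukocyte markers, 11 were tested, and Ptprc, which marks all leukocytes, was below background on every array. Lyz2, a macrophage lysozyme, averaged 5.51 in AG1478-treated MT-HGF cells, 5.70 in MT-HGF cells and 6.03 in RAS cells, none of them above background, against 7.69 in wild type, where all 3 arrays were above it. Fcer1g and Tyrobp were also called lower in the 3 groups and Itgam, below background, in MT-HGF cells, whereas Cd68 was higher in all 3. The summed leukocyte level, which Cd68 leads, was 10.81 to 11.05 in AG1478-treated MT-HGF cells, 10.89 to 10.97 in MT-HGF cells and 10.93 to 11.05 in RAS cells, against 10.56 to 10.63 in wild type. None of the 6 tested Langerhans and dendritic markers was called in any comparison. In MT-HGF, RAS and wild-type cells 4 of these 6 were above background on no array, and 5 with AG1478. The Langerhans marker Cd207 did not pass the filter, so little can be said of these cells. Melanocyte markers were all above background, and 6 of 8 were called lower in MT-HGF than in wild-type cells and none in RAS cells. Their summed level was 13.37 to 13.52 with AG1478, 13.36 to 13.53 in MT-HGF cells and 13.79 to 13.93 in RAS cells, against 13.72 to 13.85 in wild type. Of 6 endothelial markers 2, Eng and Tek, were called lower in MT-HGF and in RAS cells and 1, Pecam1, higher in both though below background, at a summed level of 9.36 to 9.38 and 9.34 to 9.41 in these groups, against 9.67 to 9.69 in wild type. For all genes, the shares called lower than in wild type were 19.9% in RAS cells, 23.9% in MT-HGF cells and 26.2% with AG1478. What part these other cell types had in the interferon gene differences was not tested.

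Among the transcription factors and feedback genes, 7 in number, Irf9 was lower in both MT-HGF and RAS cells while Irf1 was higher in MT-HGF cells. The group had 3 members lower and 1 higher in RAS cells, against 19.9% and 12.6% of all genes. In MT-HGF cells 2 were lower and 1 higher, near the shares of all genes, 23.9% and 17.1%. Irf9, the DNA-binding partner of STAT2, had log2 values of 8.48, 8.27 and 8.08 in MT-HGF cells and 8.17, 8.35 and 8.31 in RAS cells, against 8.83, 8.90 and 8.82 in wild type. The wild-type arrays did not overlap with either group. Its log2 difference was -0.58 (SE 0.088, limma adjusted p = 5.09e-05) in MT-HGF cells and -0.57 (limma adjusted p = 7.97e-05) in RAS cells, 1.49-fold in each. Usp18, a protease that removes ISG15 and damps IFNAR signalling, read 7.60, 7.62 and 7.42 in MT-HGF cells and 7.22, 7.47 and 7.44 in RAS cells, against 7.80, 8.03 and 7.97 in wild type. It fell by 0.38 on the log2 scale in MT-HGF cells (SE 0.084, limma adjusted p = 0.00146) and fell by 0.56 in RAS cells (limma adjusted p = 6.48e-05), with no overlap of arrays in either case.

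Irf1, a factor induced mainly by interferon gamma that drives Tap1 and other class I genes, went the other way in MT-HGF cells. It read 7.41, 7.27 and 7.31 there and 6.94, 6.66 and 6.88 in RAS cells, against 6.73, 6.78 and 6.77 in wild type. The MT-HGF arrays stood above all the RAS and wild-type arrays and above background, while no wild-type array was above background, so the MT-HGF level was at least 1.32-fold higher (limma adjusted p = 1.52e-05). RAS cells differed from wild type by 0.07 (limma adjusted p = 0.601), which was not called. A second, dimmer Irf1 cluster did not show the rise: it averaged 6.44 in MT-HGF cells and 6.46 in wild type, both below the range of the background lines. The sequence printed above, with its single GAS, belongs to 1 of the Irf1 starts, and a second start window held neither pattern.

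Stat2, a factor of type I signalling, read 7.66, 7.82 and 7.62 in MT-HGF cells and 7.44, 7.58 and 7.35 in RAS cells, against 7.50, 7.75 and 7.79 in wild type. Both groups overlapped with wild type and neither difference was called (0.02 in MT-HGF cells, limma adjusted p = 0.919, and -0.22 in RAS cells, limma adjusted p = 0.0635). Irf7, which amplifies type I interferon production, was called lower in RAS cells, where its values of 6.51, 6.52 and 6.66 were all under background, against 6.86, 6.99 and 6.91 in wild type. Socs1, which blocks JAK kinases, was higher in RAS cells by 0.33 (limma adjusted p = 0.00658) and by 0.22 in MT-HGF cells without a call (limma adjusted p = 0.0574). Irf2, which competes with IRF1 for its sites, ranged from 8.56 to 9.36 and was called in no comparison.

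The sensors and antiviral effectors, 11 tested, had 5 members lower and 1 higher in each of RAS and MT-HGF cells. The shares of all genes were 19.9% lower and 12.6% higher in RAS cells, and 23.9% and 17.1% in MT-HGF cells. Xaf1, a pro-apoptotic interferon target, was lower in both. It read 6.52, 6.83 and 6.65 in MT-HGF cells and 6.64, 6.66 and 6.91 in RAS cells, against 7.22, 7.47 and 7.43 in wild type. All wild-type arrays were above background and above every other array of these groups, and no MT-HGF array was above background. Xaf1 was therefore at least 1.35-fold lower in MT-HGF cells (limma adjusted p = 3.27e-05), and it was 1.56-fold lower in RAS cells (limma adjusted p = 0.000141), where 1 array was above background.

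The RNA sensor Ifih1, known as MDA5, fell by 0.34 in MT-HGF cells and fell by 0.36 in RAS cells, on the log2 scale (limma adjusted p = 0.00251 in each). It was above background on 2 MT-HGF arrays, 1 RAS array and all 3 wild-type arrays. Its partner Dhx58, known as LGP2, was below background throughout. Ifit1, which binds viral RNA lacking a 2′-O-methylated cap, read 6.59, 6.57 and 6.59 in MT-HGF cells and 6.43, 6.67 and 6.60 in RAS cells, all under background, against 7.03, 6.94 and 6.84 in wild type, of which 2 were above it. It was called lower in MT-HGF cells (limma adjusted p = 0.00161) and in RAS cells (limma adjusted p = 0.00149), and its ISRE pair is printed above. Its neighbour Ifit2 was called lower in MT-HGF cells at 5.87, 5.75 and 5.98, against 6.56, 6.57 and 6.35 in wild type (limma adjusted p = 5.68e-05), but no array of the study was above background for it, so no fold is given. RAS cells, at 6.23, 6.35 and 6.62, overlapped with wild type. Ifit3, which has a near-identical copy and is therefore uncertain, read 6.74, 7.02 and 6.87 in RAS cells, against 6.61, 6.59 and 6.63 in wild type. It was called higher, with only RAS replicate 3 above its background, and the call was lost without RAS replicate 2 (limma adjusted p = 0.0548).

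Oasl2 and Oas1a, of the family of enzymes and relatives that sense double-stranded RNA, were called lower in RAS cells and not in MT-HGF cells. Oasl2 read 7.50, 7.45 and 7.27 in MT-HGF cells and 6.95, 7.04 and 7.0 in RAS cells, against 7.34, 7.51 and 7.43 in wild type. The RAS arrays lay under all the others, and only 1 of them was above background. The RAS difference was -0.43 (SE 0.079, limma adjusted p = 0.000433) and the MT-HGF difference was -0.02 (limma adjusted p = 0.897). Oas1a fell by 0.29 in RAS cells (limma adjusted p = 0.00992, and 0.0523 without wild-type replicate 3), and its MT-HGF difference was -0.00 (limma adjusted p = 0.996). It was above background on 1 RAS array and on 2 arrays each of MT-HGF and wild-type cells. It belongs to a family of similar genes and is uncertain. Bst2, or tetherin, which holds budding virus at the membrane, fell by 0.22 in MT-HGF cells (limma adjusted p = 0.0207, and 0.0651 to 0.0748 without MT-HGF replicate 2 or wild-type replicate 1 or 3), while its RAS difference of -0.20 was not called (limma adjusted p = 0.0506). Rtp4, a chaperone of chemosensory receptors that interferon induces, was higher in MT-HGF cells at 6.86, 6.99 and 7.18, against 6.54, 6.66 and 6.56 in wild type, at least 1.06-fold (limma adjusted p = 0.00298). Rsad2, or viperin, was below background in all groups.

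**Figure D2:**
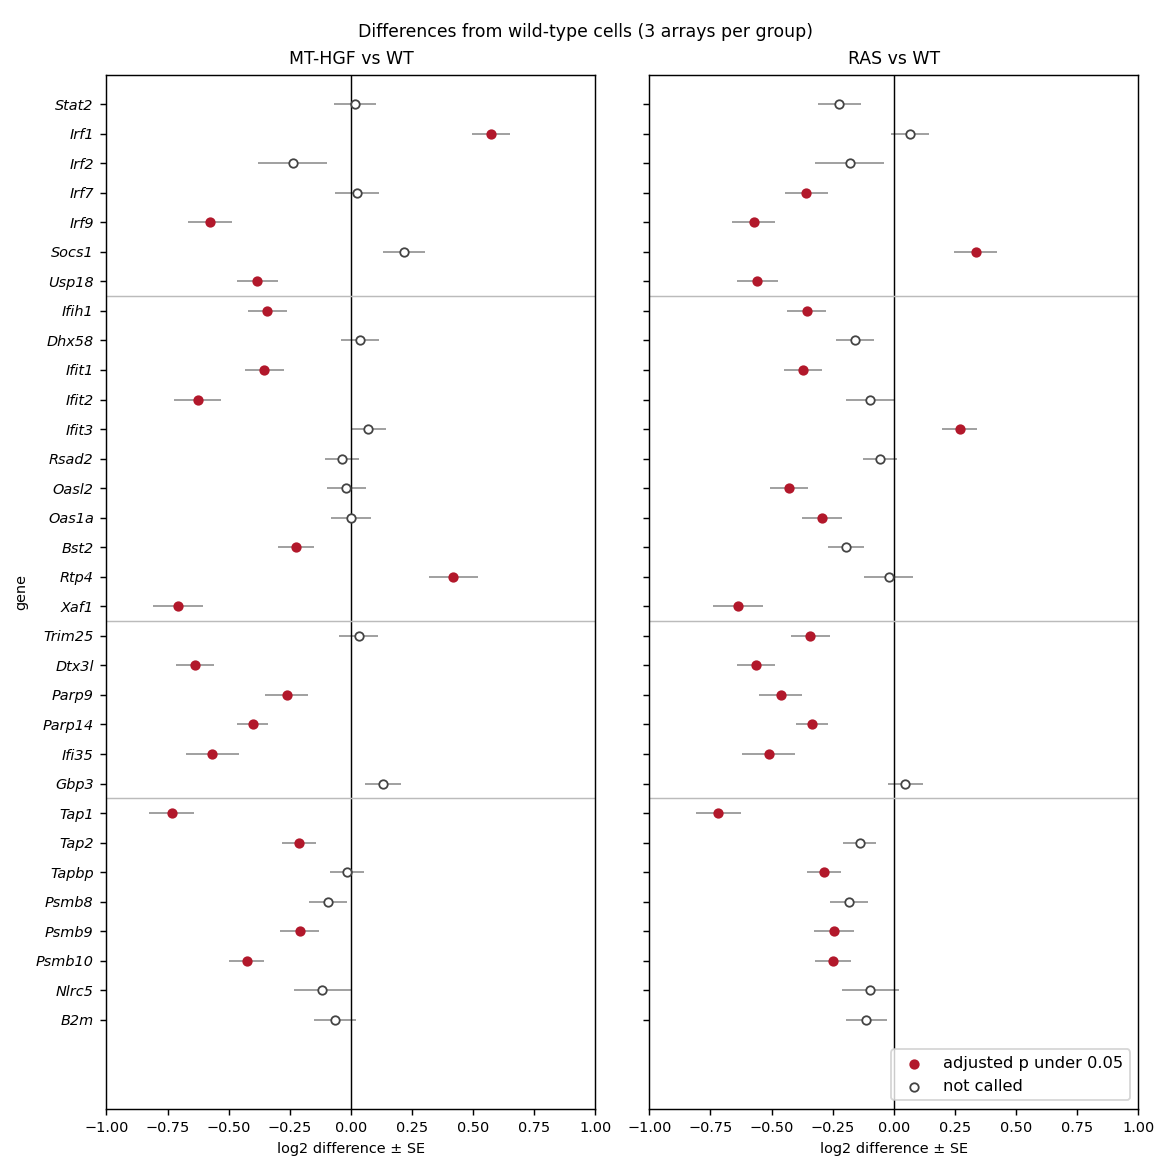
Log2 difference from wild type of each tested gene, with its standard error, in MT-HGF cells and in RAS cells, genes grouped by role. Tap1 lies at -0.73 in MT-HGF cells and -0.72 in RAS cells, whereas Irf1 has a fitted difference of 0.57 in MT-HGF cells and 0.07 in RAS cells.

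The ubiquitin, ADP-ribose and other regulators, 6 tested, had 5 members lower in RAS cells and 4 in MT-HGF cells and none higher. For all genes the shares called lower were 19.9% and 23.9%, and the shares called higher 12.6% and 17.1%. Dtx3l and Parp9 form a ubiquitin ligase and ADP-ribosyltransferase pair. Dtx3l read 7.88, 7.83 and 7.95 in MT-HGF cells and 7.80, 8.01 and 8.06 in RAS cells, against 8.44, 8.61 and 8.51 in wild type. It was 1.56-fold lower in MT-HGF cells (log2 difference -0.64, SE 0.078, limma adjusted p = 4.31e-06) and 1.48-fold lower in RAS cells (limma adjusted p = 2.52e-05), with no overlap in either. Parp9 read 7.69, 7.51 and 7.51 in MT-HGF cells and 7.31, 7.46 and 7.34 in RAS cells, against 8.00, 7.66 and 7.84 in wild type. The RAS arrays lay under the wild-type ones (-0.46, limma adjusted p = 0.000625), while 1 MT-HGF array overlapped with them (-0.26, limma adjusted p = 0.025). The MT-HGF call on Parp9 was lost without MT-HGF replicate 2 or 3 or wild-type replicate 1 or 3 (limma adjusted p = 0.0653 to 0.128).

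Parp14, an ADP-ribosyltransferase induced with them, read 6.79 in each of the 3 MT-HGF arrays and 6.78, 6.81 and 6.98 in RAS cells, against 7.17, 7.24 and 7.17 in wild type. No MT-HGF array was above background, so the level there was at least 1.19-fold lower (limma adjusted p = 8.22e-05). The RAS difference was -0.34 (limma adjusted p = 0.000675), with 1 RAS array above background. Ifi35, an interferon-induced leucine zipper protein, read 8.00, 8.06 and 8.15 in MT-HGF cells and 8.07, 8.00 and 8.31 in RAS cells, against 8.54, 8.81 and 8.56 in wild type. It was 1.48-fold lower in MT-HGF cells (limma adjusted p = 0.000417) and 1.43-fold lower in RAS cells (limma adjusted p = 0.00144), and wild type overlapped with neither. Trim25, the ubiquitin ligase that activates the sensor RIG-I, stood low in RAS cells. It read 8.94, 8.99 and 9.16 in MT-HGF cells and 8.64, 8.61 and 8.71 in RAS cells, against 8.96, 8.96 and 9.07 in wild type. The RAS arrays were the lowest of these and overlapped with neither group. Its RAS difference was -0.34 (SE 0.080, limma adjusted p = 0.00306) and its MT-HGF difference 0.03 (limma adjusted p = 0.819). Gbp3, a guanylate-binding protein, was below background on all arrays.

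Antigen processing, 8 genes tested, had 4 members lower and none higher in both RAS and MT-HGF cells. The shares of all genes called lower were 19.9% in RAS and 23.9% in MT-HGF cells, and those called higher 12.6% and 17.1%. Tap1, a subunit of the transporter that carries peptides into the endoplasmic reticulum, had the largest difference, in both comparisons with wild type, of the genes above background on all arrays of both groups. It read 8.41, 8.46 and 8.33 in MT-HGF cells and 8.28, 8.46 and 8.52 in RAS cells, against 9.03, 9.20 and 9.18 in wild type. Every wild-type array was above every MT-HGF and RAS array. Tap1 was 1.66-fold lower in MT-HGF cells (log2 difference -0.73, SE 0.091, limma adjusted p = 5.41e-06) and 1.64-fold lower in RAS cells (-0.72, limma adjusted p = 1e-05). Tap2, the other subunit, fell by 0.21 in MT-HGF cells (limma adjusted p = 0.0187, and 0.111 without wild-type replicate 2), and its RAS difference of -0.14 was not called (limma adjusted p = 0.138).

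The immunoproteasome subunits replace standard subunits of the proteasome and change the peptides it cuts. Psmb9 shares its start region with Tap1, as printed above, and was called lower at -0.21 in MT-HGF cells (limma adjusted p = 0.0471, with overlapping arrays) and -0.25 in RAS cells (limma adjusted p = 0.0269). The MT-HGF call was lost in 11 of 21 alternative settings, and the RAS call with median centring (limma adjusted p = 0.0707) and without RAS replicate 3 or wild-type replicate 1 or 3 (limma adjusted p = 0.106 to 0.116). Psmb10 read 7.51, 7.44 and 7.50 in MT-HGF cells and 7.78, 7.50 and 7.71 in RAS cells, against 7.97, 7.90 and 7.86 in wild type. Its arrays did not overlap with wild type in either group, and its differences were -0.43 in MT-HGF cells (limma adjusted p = 0.000162) and -0.25 in RAS cells (limma adjusted p = 0.0148). The RAS call was lost without RAS replicate 2 (limma adjusted p = 0.1) or wild-type replicate 1 (limma adjusted p = 0.0516). Psmb8 was below background. Of the standard subunits that they replace, Psmb5, Psmb6 and Psmb7, only Psmb5 was called against wild type, which fell by 0.30 in MT-HGF cells (limma adjusted p = 0.000328).

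Tapbp, or tapasin, bridges the transporter and MHC class I. It read 9.22, 9.31 and 9.25 in MT-HGF cells and 8.88, 9.08 and 9.02 in RAS cells, against 9.19, 9.30 and 9.36 in wild type. The RAS arrays were the lowest (-0.29, limma adjusted p = 0.00424) and the MT-HGF arrays overlapped with wild type (-0.02, limma adjusted p = 0.89). B2m, the light chain of MHC class I, averaged 11.96 ± 0.14 in MT-HGF cells and 11.91 ± 0.15 in RAS cells, against 12.03 ± 0.02 in wild type (SD, n = 3 each), and limma called no difference (adjusted p = 0.618 in MT-HGF and 0.372 in RAS cells).

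**Figure D3:**
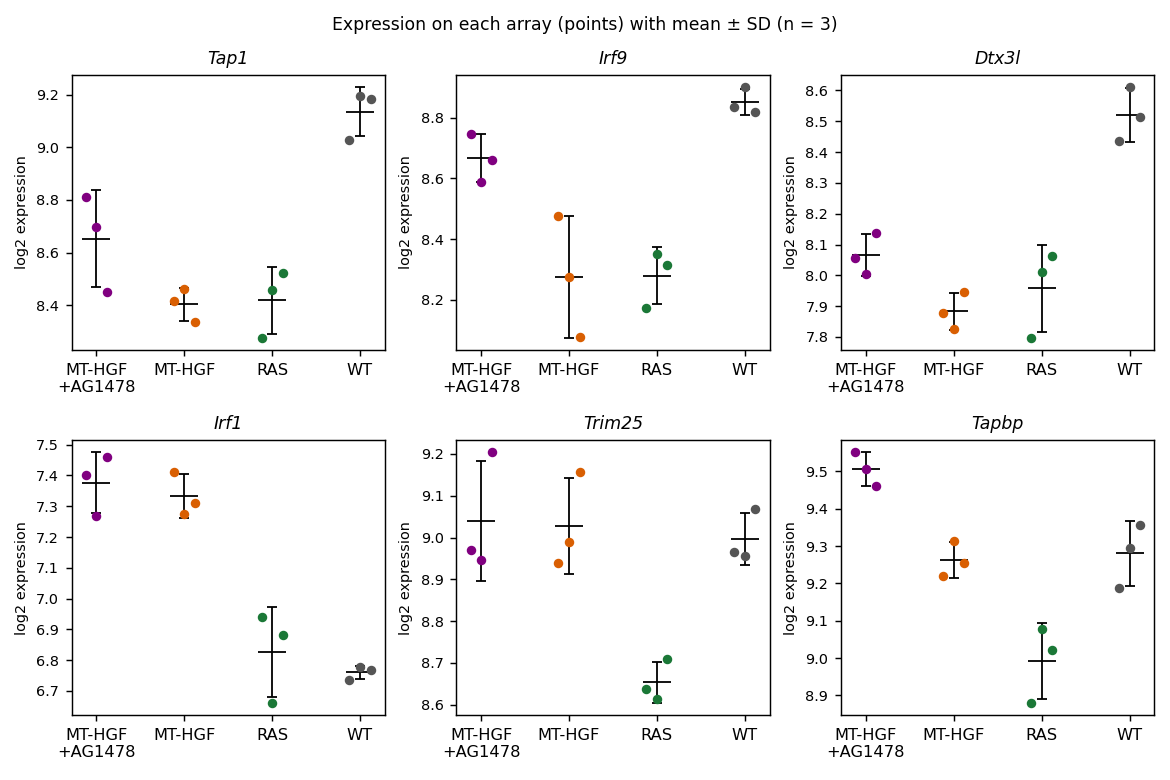
Log2 value of Tap1, Irf9, Dtx3l, Irf1, Trim25 and Tapbp in each array, with the mean and SD of 3 arrays per group, groups from left to right as AG1478-treated MT-HGF, MT-HGF, RAS and wild type. Tap1, Irf9 and Dtx3l are lower in MT-HGF and RAS than in wild-type cells, Irf1 is higher in the MT-HGF groups, and Trim25 and Tapbp are lowest in RAS cells.

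Nlrc5, the transactivator of MHC class I genes, was measured by 17 clusters that passed the filter, and they differed among themselves. The brightest, used for the counts above, was not called (-0.12 in MT-HGF cells, limma adjusted p = 0.497). A fit of single clusters, added after the values were seen, covered 17298 clusters, of which 23.3% were called lower in MT-HGF than in wild-type cells and 16.6% higher. There 9 of the 17 Nlrc5 clusters were lower and none higher, with a median of -0.20, and 2 of the 9 were above background on all arrays of both groups. Cluster 10574102, among these, read 7.55, 7.42 and 7.36 in MT-HGF cells, against 7.92, 8.24 and 8.30 in wild type, with a log2 difference of -0.71 (limma adjusted p = 5.57e-05). In RAS cells 1 of the 17 was lower and none higher, against 18.9% and 12.3% of all clusters, and the median was -0.03. All 17 differences between MT-HGF and RAS cells were below 0, and 9 were called lower and none higher, against 12.4% and 13.2% of all clusters. Of these 9, 3 were above background on all arrays of both groups and 2 on no array of either. The 17 clusters report pieces of 1 gene and are not replicates.

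**Figure D4:**
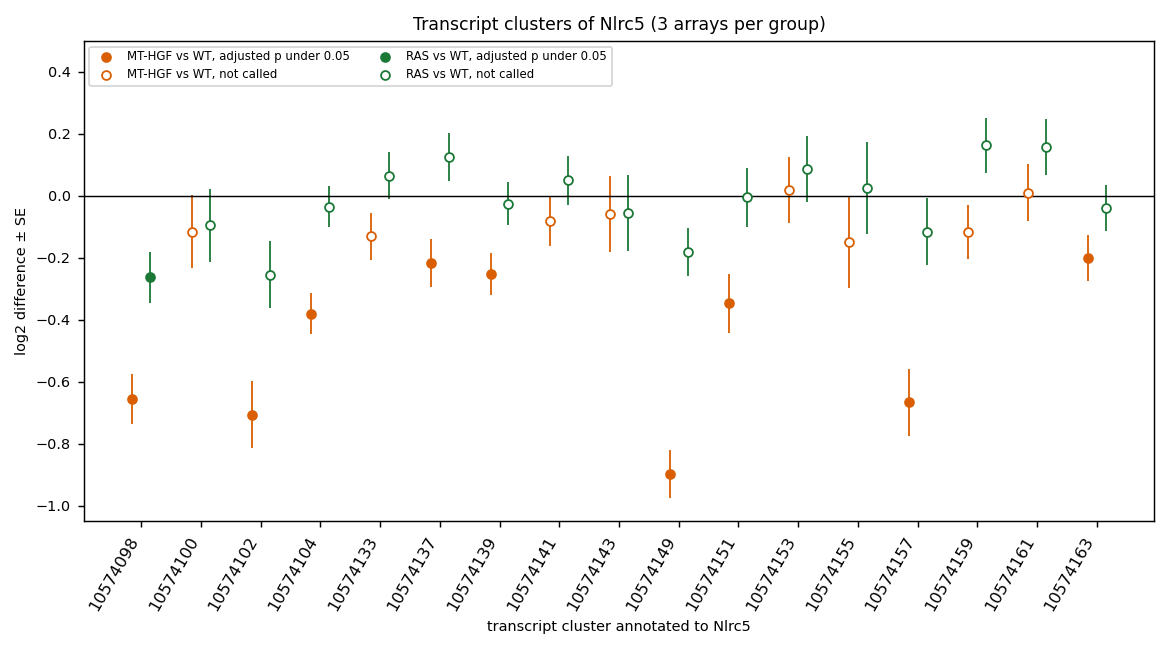
Log2 difference from wild type of each of the 17 Nlrc5 clusters in MT-HGF cells and in RAS cells. The MT-HGF differences run from -0.90 to 0.02 and the RAS differences from -0.26 to 0.16.

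MT-HGF and RAS cells were also compared directly, which tests where they differ. Of the 32 genes 7 were higher and 1 lower in MT-HGF cells, that is 21.9% higher and 3.12% lower, against backgrounds of 13.4% and 12.6%. The 7 were Irf1 (0.51, limma adjusted p = 0.00016), Oasl2 (0.41), Irf7, Trim25 (0.37), Oas1a (0.29), Tapbp (0.27) and Rtp4. With the mean of both Irf1 clusters its call was lost (0.18, limma adjusted p = 0.0761), as was that of Oas1a without MT-HGF replicate 2 (limma adjusted p = 0.0774). Of the 7, Trim25 and Tapbp were above background on all arrays of both groups. No called difference between MT-HGF and RAS cells reached 1.5-fold, against 2.17% of all genes higher and 1.59% lower at that size. Tap1, Irf9, Dtx3l and Ifi35, lower in both than in wild type, differed between them by -0.02, -0.00, -0.07 and -0.06, none of them called (limma adjusted p from 0.563 to 0.989). That a p missed the threshold does not show that the levels were equal.

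In AG1478-treated against untreated MT-HGF cells few of the genes passed the test. Limma called 3 higher (Irf9, Stat2 and Tapbp) and 1 lower (Ifit3), 9.38% and 3.12% of the 32, against 6.57% and 9.91% of all genes. The median log2 difference was 0.12, against 0.02 for all genes, and 29 of the 32 differences were above 0, as were 8661 of the 15868 for all genes. Background lines were at 7.11, 7.09 and 7.22 on the AG1478-treated arrays, against 7.05, 6.90 and 6.88 on the untreated MT-HGF arrays. Leukocyte and Langerhans markers, mostly below background, each had a median of 0.10, with 9 of 11 and 5 of 6 differences above 0. The keratinocyte marker median was 0.12, and the fibroblast, endothelial and melanocyte medians were 0.03, -0.00 and -0.04. What part low signal had in the shift was not tested. Irf9 read 8.75, 8.59 and 8.66 with AG1478, against 8.48, 8.27 and 8.08 in untreated MT-HGF cells, a difference of 0.39 (SE 0.088, limma adjusted p = 0.00534) with no overlap. Stat2 read 8.10, 8.05 and 7.95 with AG1478, against 7.66, 7.82 and 7.62 in untreated cells (0.34, SE 0.088, limma adjusted p = 0.0132), and the call was lost without AG1478-treated replicate 1 (limma adjusted p = 0.0553) or without MT-HGF replicate 3 (limma adjusted p = 0.0625). Tapbp read 9.55, 9.51 and 9.46 with AG1478, against 9.22, 9.31 and 9.25 without (0.24, SE 0.070, limma adjusted p = 0.0237), and the call was lost when any of 4 single arrays was left out (AG1478-treated replicate 1 or 2, MT-HGF replicate 1 or 3, limma adjusted p = 0.0546 to 0.0812). Ifit3 was below background in both groups, and its call was lost without any 1 of 4 arrays (AG1478-treated replicate 1 or 2, MT-HGF replicate 2 or 3, limma adjusted p = 0.0578 to 0.0804). With 1 array fewer the number called higher ranged from 1 to 5: it was 1 without AG1478-treated replicate 1 or MT-HGF replicate 3, and 5 without wild-type replicate 1.

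Tap1 read 8.81, 8.70 and 8.45 with AG1478, against 8.41, 8.46 and 8.33 in untreated MT-HGF cells. The groups overlapped at 1 array, and the difference of 0.25 (SE 0.091) was not called (limma adjusted p = 0.0737). Dtx3l read 8.05, 8.00 and 8.14 with AG1478, against 7.88, 7.83 and 7.95 in untreated cells, without overlap and also without a call (0.18, limma adjusted p = 0.124). For the others, Irf1 read 7.40, 7.27 and 7.46 with AG1478, Xaf1 6.98, 6.79 and 7.13, and Ifit2 5.98, 5.95 and 5.81. Usp18 read 7.61, 7.64 and 7.72 with AG1478, Oasl2 7.61, 7.53 and 7.76, and Trim25 8.97, 8.95 and 9.20. None of these 6 was called against untreated MT-HGF cells. Parp9 read 7.77, 7.56 and 7.67 with AG1478, Parp14 6.91, 6.93 and 6.93, Ifi35 8.34, 8.29 and 7.94, and Psmb10 7.67, 7.59 and 7.57, again without a call.

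Set against wild type instead, AG1478-treated MT-HGF cells had 10 of the 32 genes lower and 6 higher, which is 31.2% and 18.8%, against 26.2% and 16.8% of all genes. The shares were close to those of all genes, and the median difference was -0.04, against 0.00. Tap1 was lower (-0.48, limma adjusted p = 0.000379), as were Dtx3l (-0.45, limma adjusted p = 0.000151) and Ifi35 (-0.45, limma adjusted p = 0.00282). Irf9 was not called (-0.19, limma adjusted p = 0.105). Irf1 was at least 1.36-fold higher (limma adjusted p = 7.09e-06), and Stat2 (0.36), Socs1 (0.27), Tapbp (0.23), Oasl2 (0.21) and Rtp4 made up the other higher genes. Some of these calls rested on single arrays, with a limma adjusted p of 0.0511 to 0.163 once an array was left out. That held for Socs1 (AG1478-treated replicate 3, wild-type replicate 2 or 3), Tapbp (AG1478-treated replicate 1, wild-type replicate 1) and Oasl2 (AG1478-treated replicate 1 or 3, MT-HGF replicate 2, wild-type replicate 1 or 3, and also a fit of these 2 groups alone), and for Usp18 on the lower side (AG1478-treated replicate 1, wild-type replicate 2 or 3). Ifit3, called lower but below background in both groups, lost its call in 11 of 20 alternative settings. The genotype, the drug and the submission differ between these 2 groups and cannot be told apart.

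**Figure D5:**
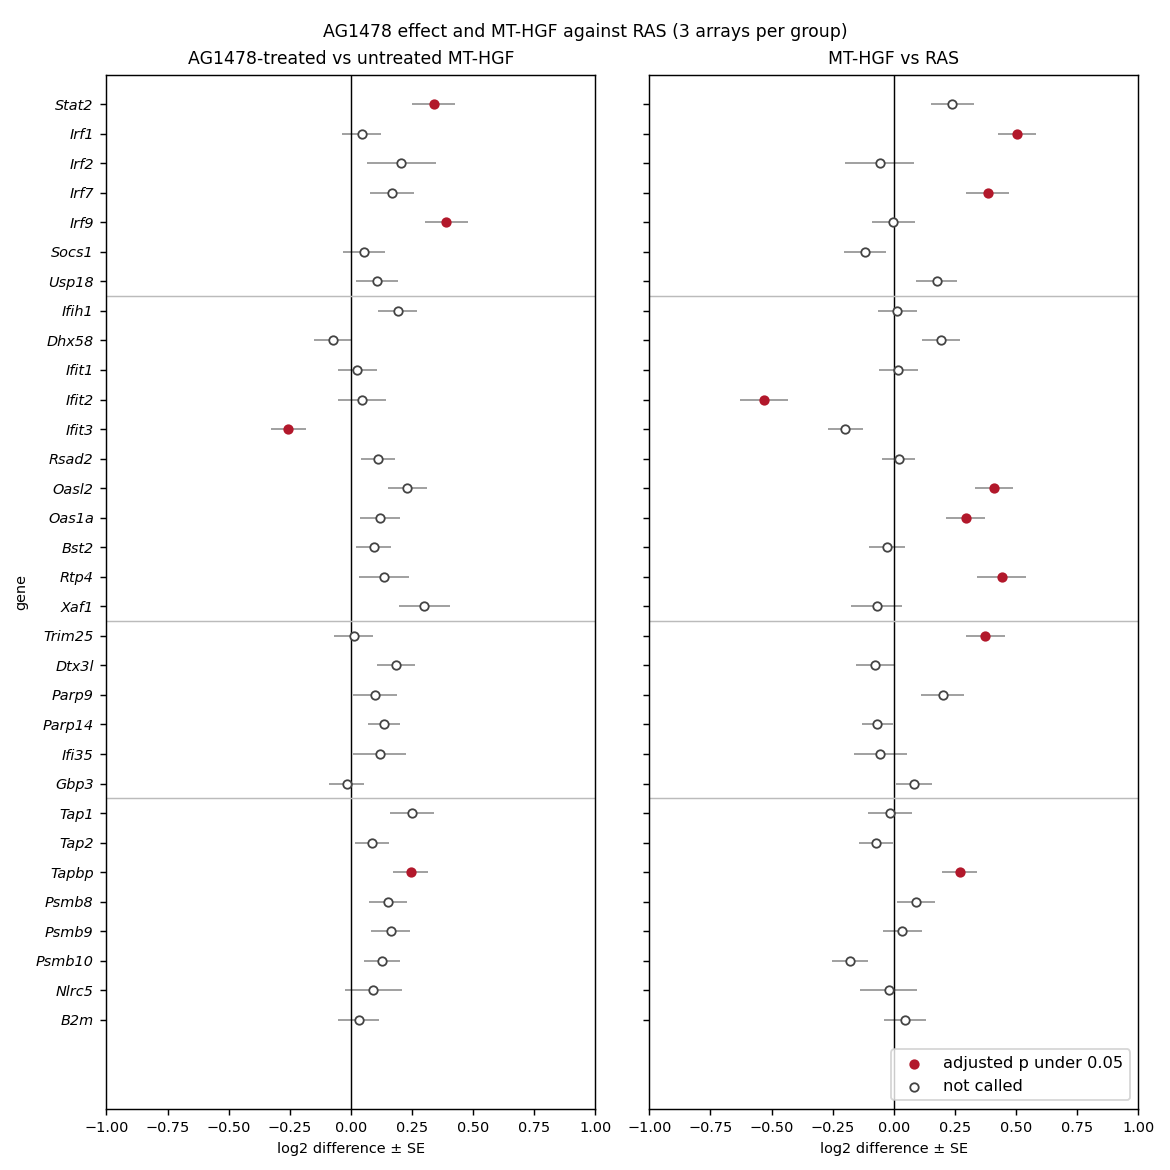
Log2 difference, with its standard error, of each tested gene in AG1478-treated against untreated MT-HGF cells and in MT-HGF against RAS cells. In the first, 29 of 32 points are above 0, and Irf9 at 0.39 is the highest. In the second, Irf1 is at 0.51, and the 1 point called lower is Ifit2, which was below background in both groups.

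The other genes of the pathway were read from fixed lists, which were chosen with earlier results of these data known. Of 13 receptor and JAK-STAT genes, 6 were lower in RAS cells and none higher, against 19.9% and 12.6% of all genes. Among the 6 were Stat3, which carries IL-6 and EGF family signals (-0.43, limma adjusted p = 1.98e-05), and Ifnar2, a type I receptor chain (-0.37, limma adjusted p = 0.00374). In MT-HGF cells 1 was lower (Ifnar2, -0.48) and 1 higher, the factor Irf5, against 23.9% and 17.1% of all genes. With AG1478 3 of the 13 were higher than in untreated MT-HGF cells, against 6.57% of all genes. Stat3 read 11.17, 11.16 and 11.16 with AG1478, against 10.69, 10.67 and 10.63 without (0.50, limma adjusted p = 1.27e-05), and Ifngr1, an interferon gamma receptor chain, read 9.38, 9.46 and 9.41, against 8.84, 8.90 and 8.95 (0.52, limma adjusted p = 0.00155). The groups did not overlap for either gene.

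Of 48 other interferon-induced genes, 21 were lower and 4 higher in RAS cells, against 19.9% and 12.6% of all genes. In MT-HGF cells 18 were lower and 8 higher, against 23.9% and 17.1% of all genes. Irgm1, an immunity-related GTPase, read 6.87, 7.04 and 7.01 in MT-HGF cells and 7.02, 7.07 and 7.40 in RAS cells, against 8.19, 8.29 and 8.20 in wild type. By the fit it was 2.38-fold lower in MT-HGF cells (limma adjusted p = 5.48e-09) and 2.09-fold lower in RAS cells (limma adjusted p = 6.1e-08), and all wild-type arrays stood apart. MT-HGF replicate 1 and RAS replicates 1 and 2 were under their background lines, so these sizes are uncertain. Lgals3bp, a galectin-3 binding protein, was called lower, at -0.98 in RAS cells and -0.51 in MT-HGF cells, and Lgals9, a galectin, at -0.73 in RAS cells and -0.35 in MT-HGF cells. Genes that went up included Isg20, an exonuclease that degrades viral RNA, by 0.97 in MT-HGF cells and 0.33 in RAS cells, and Ifi203, of a family of DNA-binding proteins with many similar copies, by 0.70 in MT-HGF cells and 0.77 in RAS cells. All these had a limma adjusted p of 0.0337 or less. Of 15 MHC class I and peptide-loading genes, 5 were higher and 1 lower in MT-HGF cells, against 17.1% and 23.9% of all genes. The chaperones Pdia3 (0.56) and Calr (0.50) led the higher ones, and both also serve general protein folding. In RAS cells Calr was higher by 0.24, while Mr1, which presents vitamin B metabolites (-0.63), and Psme2, a proteasome activator subunit (-0.34), were lower.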

How the data were processed

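The 12 arrays were used as the authors' deposited log2 values, made with RMA per the submitters' processing notes (background correction, quantile normalization and probe summary). The RMA version, and whether all arrays went through 1 run, are not given in the sources used here. Groups came from titles and sources. Platform annotation gave 21789 of 35511 transcript clusters a single symbol. Clusters above their array's 30th percentile on at least 3 arrays were kept, and the brightest stood for each gene, which left 15868 genes. A group-means fit on all 12 arrays (limma 3.58.1 in R 4.3.3, lmFit and eBayes, residual df 8) gave 5 comparisons, with Benjamini-Hochberg adjustment over all genes. The fit was tested on simulated data. A level counted as above background when it exceeded its array's 95th percentile of chemosensory receptor genes. Values in every array are given for the 14 genes with the widest span of group means that were above background on all arrays of a group, and for any other gene called with at least 1.5-fold. The genes and lists were chosen with earlier results of these data known. Same-numbered arrays were checked for pairing: their deviations correlated at -0.44 to 0.53, with 7 of 18 over 0.1. Among RAS, MT-HGF and wild-type arrays, those numbered 1 or 3 correlated at 0.27 to 0.53, and those numbered 2 at -0.24 to 0.09. The labels do not say whether same-numbered arrays were handled together. The main fit assumed no pairing, and a replicate block was an alternative. Alternatives were a replicate block, 2 filters, 2 scalings, trended priors, array weights, pairwise fits, averaged clusters and leaving out each array.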

Additional observations from a re-analysis of the deposited data

How the results depend on the processing

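Of 3330 log2 differences of single genes and settings, 64 lost a call and 69 gained one. The sign changed in 83, among them Oas1a in MT-HGF against wild type, and 0 of the 83 were called in the reported fit or under the alternative. Calls that no setting ended numbered 15 of 19 for RAS against wild type, 13 of 17 for MT-HGF against wild type, 1 of 4 for AG1478-treated against untreated MT-HGF (Irf9), 6 of 8 for MT-HGF against RAS and 11 of 16 for AG1478-treated MT-HGF against wild type. Array weights, whose estimation stopped before convergence, moved the most: they called 8096 genes in all for RAS against wild type (5158 without weights) and 3925 for AG1478-treated against untreated MT-HGF (2615 without), and among the 32 genes 4 higher for MT-HGF against wild type, 10 higher for AG1478-treated against untreated MT-HGF and 2 lower for MT-HGF against RAS. Quantile normalization and median centring each called 5 of the 32 higher for AG1478-treated against untreated MT-HGF. The number lower for MT-HGF against RAS was 2 under quantile normalization, the mean of clusters and the replicate block. A stricter filter, above the array median, left 1 higher for RAS against wild type, 0 lower for AG1478-treated against untreated MT-HGF and 0 lower for MT-HGF against RAS, since fewer genes were then tested. For the others the cause was not tested. With the replicate number as a block, 19 of the 32 were lower for RAS against wild type. In that setting 6 single differences gained a call while 0 lost one. No label says that the numbers pair the arrays. Both scalings moved the median of all genes by less than 0.1. Leaving out each array in turn gave, for RAS against wild type, 1 to 2 of the 32 higher, 15 to 18 lower and 4119 to 5627 genes called in all. For MT-HGF against wild type the ranges were 2 to 3, 12 to 16 and 5526 to 6914, and for AG1478-treated against untreated MT-HGF 1 to 5, 0 to 1 and 1792 to 2795. For MT-HGF against RAS they were 6 to 8, 1 to 2 and 2961 to 4620, and for AG1478-treated MT-HGF against wild type 4 to 7, 8 to 11 and 5828 to 6941. The precision is limited by 3 arrays in each group and by signal near background for 15 of the 32 genes.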

Other observations

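Nucleic acid sensors and their adaptors, 11 tested, did not move one way. Ikbke, a kinase that activates IRF3 and IRF7, was higher in MT-HGF cells (0.72, limma adjusted p = 6.82e-07) and in RAS cells (0.30, limma adjusted p = 0.00463) than in wild type. Sting1, the adaptor of cytosolic DNA sensing, was called lower in MT-HGF cells at -0.49, and Cgas, the enzyme that signals to it, at -0.22. With AG1478, Myd88, an adaptor of Toll-like and IL-1 receptors, was higher than in untreated MT-HGF cells by 0.39 and Ticam1, the adaptor of TLR3, by 0.30, while Ikbke fell by 0.23. All of these were called by limma, with 3 arrays in each group.

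The 9 interferon genes that were tested gave no call against wild type in MT-HGF or RAS cells, or with AG1478 against untreated MT-HGF cells. Of 7 MHC class II genes, 3 were called lower in MT-HGF cells and 2 in RAS cells, against 23.9% and 19.9% of all genes. Ctss and H2-Ab1 were called lower in both groups, but neither was above background on any array. Ctss, a protease that trims the class II chaperone, read 6.27, 6.09 and 5.91 in MT-HGF cells and 6.20, 6.47 and 6.32 in RAS cells, against 6.89, 6.51 and 6.68 in wild type.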
